A study of Mus musculus with 6 samples.

Results

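A set of 10 genes of the p53 response and of the mitochondrial cell death pathway was followed in mouse embryonic spleens taken at E13.5: Mdm2, Phlda3, Ccng1, Trp53inp1, Sesn2, Plk2, Bbc3, Pmaip1, Bcl2l11 and Bcl2. They are 10 of 18710 genes tested, and were picked by name, with earlier results of these arrays known. Each was measured by 1 probe set that carries no other gene symbol, and all 10 passed the filter on low values. The study set 3 arrays from Tlx1 homozygous spleens against 3 arrays from Tlx1 heterozygous spleens. The labels give zygosity only and do not name the allele. Heterozygous spleens, which carry the allele too, served as controls, and no spleen without it is among the samples. Tlx1 encodes a homeobox transcription factor that spleen development depends on. In mice that lack it the spleen primordium starts to form and is then lost.

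The protein p53 is a transcription factor that is kept scarce by the ubiquitin ligase MDM2 and accumulates after DNA damage and other stress. It switches on genes that slow the cell cycle, that restrain growth signalling, or that kill the cell. The killing branch runs through the BCL2 family at the mitochondrion, where BH3-only proteins such as PUMA (Bbc3), NOXA (Pmaip1) and BIM (Bcl2l11) oppose survival proteins such as BCL2. Bcl2l11 and Bcl2 answer to many other regulators besides p53.

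The values are array intensities on a linear scale. Array medians lay between 106 and 110.5, and the correlation of log2 values across genes, which are not independent replicates, was 0.995 to 0.997 for arrays of the same group and 0.989 to 0.993 for arrays of different groups. Tlx1 itself averaged 193 ± 19.9 in homozygous and 750.0 ± 65.3 in heterozygous spleens (SD, n = 3 each), and fell by 1.95 on the log2 scale (limma adjusted p = 1.3e-05). Of the other spleen regulators, Nkx2-5 and Nkx3-2 were detected in every spleen. They were lower in homozygous ones, at −1.36 and −1.23 on the log2 scale. Barx1 lay higher on every homozygous array (0.27, limma adjusted p = 0.0517). Of 13 spleen mesenchyme markers, Tlx1 included, 7 had estimates above 0 and 6 below, with a median of 0.12. All 6 below 0 were called lower: Tlx1, Nkx2-5, Nkx3-2, Tcf21 (−0.26), Wt1 (−0.33) and Pdgfrb (−0.24). Of the 7 above 0, 1 was called higher (Col1a1, 0.24). Among all genes 6.56% were called lower and 10.4% higher. The labels do not say whether the 3 samples of a group came from separate embryos. Every p-value here thus refers to the scatter among these arrays, part of which may be technical. Heterozygous arrays differed in sex-linked expression (values below), so their scatter is not technical alone. Whether the Tlx1 probe set lies inside the altered stretch is not known. Fold changes below are homozygous minus heterozygous on the log2(intensity + 1) scale with their standard error (SE), and a gene counts as changed at a limma adjusted p below 0.05 over all genes tested.

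The start regions of 4 of the genes are shown because they hold, or lack, the DNA motif that p53 binds, and because they belong to the genes that changed most and to a pair that did not pass the test. They are the 250 bases before an annotated start from RefSeq on GRCm38.p6, 5′ to 3′ on the gene's strand. The Ccng1 window overlaps the annotated gene, which reaches chr11:40755309, so its positions count from a start inside the gene. Capitals mark a match to the p53 consensus decamer in Ccng1 and Mdm2 and the cyclic AMP response element TGACGTCA in Plk2. Both motifs read the same on either strand.
Plk2, chr13:110394794-110395043, plus strand: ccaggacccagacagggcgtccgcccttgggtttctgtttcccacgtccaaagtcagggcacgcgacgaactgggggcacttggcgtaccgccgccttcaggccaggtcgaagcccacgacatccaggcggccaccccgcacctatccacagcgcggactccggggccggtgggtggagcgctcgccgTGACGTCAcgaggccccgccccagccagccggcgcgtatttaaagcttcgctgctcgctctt
Phlda3, chr1:135765835-135766084, plus strand: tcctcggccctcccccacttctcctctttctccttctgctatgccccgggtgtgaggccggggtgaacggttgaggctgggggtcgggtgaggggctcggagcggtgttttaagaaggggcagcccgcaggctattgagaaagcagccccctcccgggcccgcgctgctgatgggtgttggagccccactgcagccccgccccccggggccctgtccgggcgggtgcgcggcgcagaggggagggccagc
Ccng1, chr11:40755287-40755536, minus strand: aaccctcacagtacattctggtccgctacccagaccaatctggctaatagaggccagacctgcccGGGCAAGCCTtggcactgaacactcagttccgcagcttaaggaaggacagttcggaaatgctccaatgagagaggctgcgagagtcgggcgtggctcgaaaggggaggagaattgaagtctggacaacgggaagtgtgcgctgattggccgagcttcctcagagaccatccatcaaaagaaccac
Mdm2, chr10:117710759-117711008, minus strand: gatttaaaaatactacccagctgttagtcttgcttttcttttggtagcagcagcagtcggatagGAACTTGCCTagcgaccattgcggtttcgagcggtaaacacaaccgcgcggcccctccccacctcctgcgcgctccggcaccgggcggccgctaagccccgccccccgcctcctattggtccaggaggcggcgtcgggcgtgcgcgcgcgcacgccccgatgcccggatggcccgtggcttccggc

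Of the 10 genes, 8 had such a window in the table, 11 windows in all, and none was found for Pmaip1 and Trp53inp1. The decamer matched in 2 of the 11 windows, as in 7.13% of all 32851 windows of this length. In Ccng1 it lies at −185 to −176, and the 10 bases just before it differ from the consensus at 1 position. A decamer with such a neighbour occurred in 25 of all windows, or 0.0761%. All these motif searches were made after the expression values were known. In Mdm2 the decamer lies at −186 to −177 with no such neighbour before it. TGACGTCA lies at −62 to −55 of Plk2 and in 1.55% of all windows. A match is a stretch of letters and no proof of binding, and many p53 sites lie outside such windows, for instance in first introns.

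The 10 genes did not all move in the same direction. Plk2 rose in homozygous spleens, Phlda3, Bcl2 and Sesn2 fell, and the other 6 genes did not pass the test, Mdm2 and Ccng1 with estimates close to 0. That is 1 of 10 higher and 3 of 10 lower, where 10.4% of all genes were called higher, 6.56% lower and 17.0% in either direction. The groups did not overlap for 7 of the 10 (4 above, 3 below), against 38.3% of all genes. The median log2 fold change over the 10 genes was 0.04, beside 0.02 over all genes. Given how the genes were picked, their counts carry no test of their own.

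**Figure D1:**
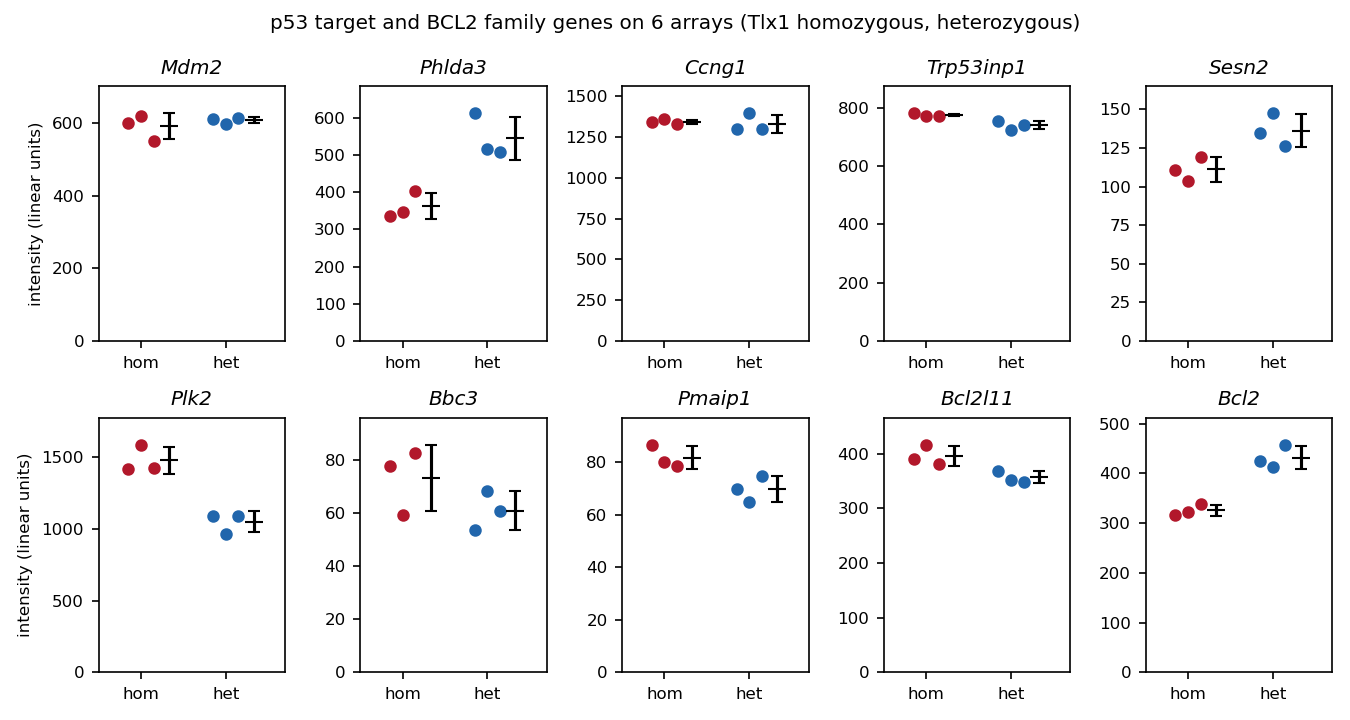
Intensity (linear units, axes from 0) of each of the 10 genes on every array, homozygous spleens (hom, red) left of heterozygous spleens (het, blue). Black marks give mean and SD of 3 arrays. Plk2 sits higher and Phlda3, Sesn2 and Bcl2 sit lower on all 3 homozygous arrays, while Mdm2, Ccng1 and Bbc3 overlap between the groups.

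Mdm2, the ligase that marks p53 for destruction and is itself a p53 target, showed no detectable change. It measured 602, 622 and 552 in the 3 homozygous spleens, against 613, 599.6 and 614 in the heterozygous ones. The homozygous values span the heterozygous ones on both sides. The log2 fold change was −0.04 ± 0.07 (SE) with an adjusted p = 0.682 in limma, and its 95% interval ran from −0.19 to 0.11. Its sign is not settled, since it turned to 0.02 after quantile normalization and after cyclic loess, and to 0.01 without homozygous replicate 3. Mdm4, the related protein that holds p53 inactive without destroying it, was at −0.05 ± 0.10 (SE; adjusted p = 0.748), and turned sign under the same 3 settings (up to 0.04).

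Ccng1 encodes cyclin G1, which recruits the phosphatase PP2A and is among the classic p53 targets. Homozygous spleens gave 1342, 1358 and 1333 and heterozygous spleens 1299.6, 1396 and 1300.3. The homozygous arrays lie inside the heterozygous range. Its log2 fold change was 0.01 ± 0.06 (SE; adjusted p = 0.894, 95% interval −0.12 to 0.15), a fold of 0.918 to 1.11. Ccng1, whose window holds the decamer with its near-matching neighbour, thus had the smallest estimate of the 10, though in the refits without heterozygous replicate 1 or 3, after median centring and with the Y-linked covariate described below the estimate fell under 0, down to −0.04. Trp53inp1, a stress protein that binds p53 and promotes its activity, measured 781, 773 and 772 in homozygous and 755, 725 and 743 in heterozygous spleens. All homozygous values were above all heterozygous ones, by a gap of 17.0 units. The difference was 0.07 ± 0.06 (SE; adjusted p = 0.448) and did not pass.

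Plk2, a polo-like kinase of centriole duplication and a p53 target, made the 1 rise. Its intensity was 1422, 1587 and 1426 in homozygous spleens, against 1093, 965 and 1094 in heterozygous spleens. The lowest homozygous value lay 328 units above the highest heterozygous value. The means were 1478 ± 94.5 and 1051 ± 74.2 (SD, n = 3 each), a log2 fold change of 0.49 ± 0.08 (SE; adjusted p = 0.00564), or 1.41-fold with a 95% interval of 1.25 to 1.59. That fold change ranks at the 98.0th percentile of all genes. Plk2 kept its call in all 6 refits without 1 array (0.43 to 0.52) and under all 12 other settings (0.47 to 0.59).

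Phlda3, a protein that consists of little more than a PH domain and competes with AKT for membrane lipids, had the deepest fall of the 10. It measured 338, 347 and 403 in homozygous spleens and 613, 516 and 509.9 in heterozygous spleens. The groups lay 107 units apart. Phlda3 averaged 363 ± 35.6 in homozygous and 546 ± 57.8 in heterozygous spleens (SD, n = 3 each), and its log2 fold change of −0.59 ± 0.10 (SE; adjusted p = 0.0067) amounts to a level 33.5% lower. It stood at the 1.01 percentile of all genes. The call held in all 6 refits without 1 array (−0.67 to −0.50) and under all 12 other settings (−0.64 to −0.52).

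Sesn2, a leucine sensor that holds back the growth kinase complex mTORC1, fell less and less securely. Homozygous spleens measured 111, 103 and 119, against 135, 148 and 126 in heterozygous spleens. The groups did not overlap but came within 6.66 units of each other. The log2 fold change was −0.29 ± 0.08 (SE; adjusted p = 0.0445). The call was lost in the refits without homozygous replicate 1 (−0.29), 2 (−0.24) or 3 (−0.34) and without heterozygous replicate 1 (−0.29) or 2 (−0.23), with adjusted p between 0.0508 and 0.145 in limma, and held without heterozygous replicate 3 (0.0421). It was also lost after quantile normalization (adjusted p = 0.054).

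**Figure D2:**
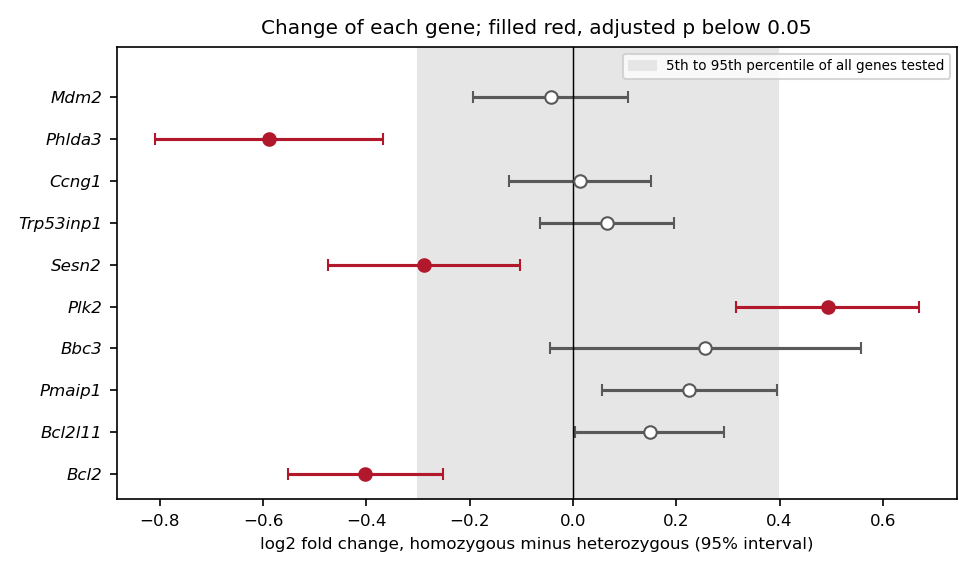
Log2 fold change (homozygous minus heterozygous, horizontal axis) of each of the 10 genes with its 95% interval from limma. Filled red points have an adjusted p below 0.05 and the grey band spans the 5th to 95th percentile of all genes tested (−0.30 to 0.40). Plk2 (0.49) lies right of the band, Phlda3 (−0.59) and Bcl2 (−0.40) lie left of it, and Sesn2 (−0.29) lies just inside.

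Among the BCL2 family members, the survival gene Bcl2 fell while none of the BH3-only genes Bbc3, Pmaip1 and Bcl2l11 passed the test. Bcl2 measured 317, 323 and 338 in homozygous spleens, against 425, 412 and 458 in heterozygous spleens. The highest homozygous value was 74.0 units under the lowest heterozygous value. Means were 326 ± 11.0 and 432 ± 23.3 (SD, n = 3 each), and the log2 fold change was −0.40 ± 0.07 (SE; adjusted p = 0.00661), a level 24.3% lower. Bcl2 kept its call in all 6 refits without 1 array (−0.43 to −0.36). With Y-linked expression added to the fit as a covariate the estimate was −0.34 and the adjusted p = 0.0534 in limma. The labels do not give sex. The Y-linked gene Eif2s3y measured 417, 391 and 392 in homozygous and 600.0, 398 and 735 in heterozygous spleens, so heterozygous arrays 1 and 3 stood apart. The X-linked gene Xist measured 1478, 1856 and 1547 in homozygous and 901, 1826 and 812 in heterozygous spleens, where the same arrays stood apart. The part of this imbalance in the fall of Bcl2 was not tested beyond that covariate, under which Phlda3, Sesn2 and Plk2 kept their calls.

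Pmaip1 (NOXA) measured 86.7, 80.3 and 78.6 in homozygous and 69.9, 65.0 and 75.0 in heterozygous spleens. All homozygous values were higher, the nearest pair 3.60 units apart. The log2 fold change was 0.23 ± 0.07 (SE; adjusted p = 0.0702). Its 95% interval, not adjusted for the number of genes, ran from 0.06 to 0.39. Pmaip1 passed with array weights (0.27, adjusted p = 0.0288) and with the stricter filter, which tests fewer genes (adjusted p = 0.0478). After cyclic loess it was 0.09 (adjusted p = 0.414), and over the refits without 1 array it ranged from 0.17 to 0.28 without passing. Bcl2l11 (BIM) measured 390.2, 416 and 382 in homozygous and 369, 353 and 349 in heterozygous spleens, again without overlap. Its log2 fold change was 0.15 ± 0.06 (SE; adjusted p = 0.136), with a 95% interval, likewise unadjusted, from 0.0047 to 0.29. Bcl2l11 passed after quantile normalization (0.22, adjusted p = 0.0458).

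Bbc3 (PUMA) had the widest spread of the 10 within homozygous spleens. It measured 77.9, 59.3 and 82.8 there, against 53.6, 68.3 and 60.9 in heterozygous spleens, and the groups overlapped through homozygous replicate 2. The coefficient of variation was 16.9% in homozygous and 12.1% in heterozygous spleens, where the median gene had 6.54% and 5.22%. The log2 fold change was 0.26 ± 0.13 (SE; adjusted p = 0.208), with a 95% interval from −0.05 to 0.56. Single arrays moved it both ways. Without homozygous replicate 2 it was 0.40 and passed (adjusted p = 0.0372), while without homozygous replicate 3 it was 0.16 and without heterozygous replicate 1 it was 0.17. It was 0.14 with the Y-linked covariate and 0.12 after cyclic loess (adjusted p = 0.565).

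The change of each BH3-only gene relative to Bcl2 was taken within arrays, which cancels any scaling between arrays. Bcl2l11 relative to Bcl2 shifted by 0.55 on the log2 scale, Pmaip1 by 0.63 and Bbc3 by 0.66 in homozygous against heterozygous spleens. The within-group SD of these differences was 0.10 and 0.10 for Bcl2l11, 0.12 and 0.03 for Pmaip1, and 0.24 and 0.21 for Bbc3 (homozygous, then heterozygous, n = 3 each). Bcl2 enters all 3 differences and lay lower on every homozygous array, while Pmaip1 and Bcl2l11 lay higher on every one, so these differences restate the single-gene values. The pairs were chosen after their values were seen, and no test is given for them.

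**Figure D3:**
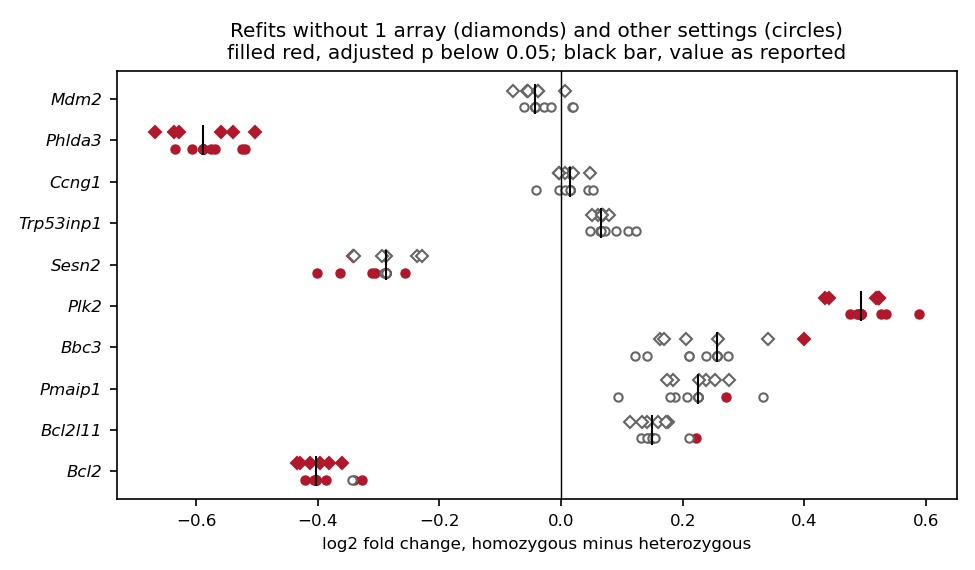
Log2 fold change (homozygous minus heterozygous, horizontal axis) of each of the 10 genes in 6 refits without 1 array (diamonds) and under 12 other settings (circles), filled red where the adjusted p is below 0.05. The black bar is the reported value. Phlda3 and Plk2 are red throughout, Bcl2 loses red once, Sesn2 loses it in 5 of 6 diamonds, and Mdm2 and Ccng1 straddle 0.

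Elsewhere in the BCL2 family the BH3-only genes Hrk and Bmf rose, and the rise of Bcl2l10 did not outlast the loss of any array. Of 15 other family genes 3 rose and none fell in limma (4 and 1 at an unadjusted p below 0.05), with a median log2 fold change of 0.10. These counts stand beside 10.4% of all genes called higher and 6.56% called lower. The BH3-only gene Hrk averaged 254 ± 11.9 in homozygous and 194 ± 3.47 in heterozygous spleens (SD, n = 3 each; log2 fold change 0.39, adjusted p = 0.0062) and was called in all 6 refits that left out an array. Bmf, a BH3-only protein held at the cytoskeleton, rose by 0.33 (adjusted p = 0.0186), a call lost without homozygous replicate 1 (0.29) or 3 (0.30), without heterozygous replicate 1 (0.33) or 2 (0.34), and with the Y-linked covariate (0.31). Bcl2l10 was dim, at 31.3 ± 0.354 in homozygous and 26.6 ± 1.33 in heterozygous spleens (SD, n = 3 each), and its rise of 0.23 (adjusted p = 0.0388) was lost in all 6 refits (0.20 to 0.27) and under 8 of 11 other settings (down to 0.10 after cyclic loess). The survival genes Bcl2l1 (0.14, adjusted p = 0.118) and Mcl1 (−0.05, adjusted p = 0.7) did not pass. Bcl2l1 passed after quantile normalization and cyclic loess (0.21 in each), and Mcl1 turned to 0.01 or less above 0 without homozygous or heterozygous replicate 3 and with the Y-linked covariate. The median of the 15 fell below 0 with the stricter filter (−0.05, 13 genes) and with probe sets averaged (−0.01), and 1 or 2 genes were called higher and 0 or 1 lower in the refits without 1 array.

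Further p53 targets moved in both directions, and most were not called. Among 36 of them 2 were higher, 3 lower and 31 uncalled, with a median of −0.05. These 5 calls stand beside 17.0% of all genes called. Tgfa, an EGF receptor ligand, fell by 0.61 on the log2 scale to 170 ± 3.17 in homozygous spleens, against 260 ± 11.0 in heterozygous spleens (SD, n = 3 each; adjusted p = 0.000773). Sulf2, which trims sulfate from heparan sulfate chains, rose to 3569 ± 160 in homozygous spleens, against 2556 ± 206 in heterozygous spleens (SD, n = 3 each; adjusted p = 0.00557). Both were called in all 6 refits that left out an array. Crip2 (−0.44) lost its call without homozygous replicate 1 (−0.44) and without heterozygous replicate 1 (−0.41) or 2 (−0.40). Ckap2 (−0.26), a spindle protein, lost it in all 6 refits but that without homozygous replicate 2 (−0.29 to −0.20 where lost). Over the 6 refits the list had 1 to 3 genes higher and 1 to 3 lower. The p53 target genes of DNA repair and arrest Ddb2, Xpc, Gadd45a and Btg2, chosen after their values were seen, were all uncalled, at 0.07, −0.08, 0.03 and 0.12.

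None of 25 regulators of p53 passed in limma, and 2 had an unadjusted p below 0.05. These were the DNA damage kinase Chek2 (−0.39 ± 0.13 SE, adjusted p = 0.0671) and the p53 relative Trp73 (0.22 ± 0.07 SE, adjusted p = 0.0682). Chek2 passed with a variance trend (adjusted p = 0.0314) and under 5 other settings, but its estimate was −0.23 without homozygous replicate 3 (166 there, against 236 and 233 on the other 2 homozygous arrays), and Trp73 passed without homozygous replicate 3 (0.28) and under 2 other settings. The DNA damage kinases Atm and Atr, chosen after their values were seen, were at −0.08 and −0.19, with adjusted p of 0.53 and 0.182 in limma. The median of the list was −0.03 and lay above 0 by less than 0.01 after quantile normalization, after cyclic loess and without heterozygous replicate 3. Trp53, Bax and Cdkn1a were not analysed here.

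Among the caspases, the apoptosome and their inhibitors the calls did not share 1 role. Of 21 genes 4 fell and 1 rose, beside 6.56% and 10.4% of all genes, with a median of −0.08, and over the refits without 1 array 1 to 3 fell and none rose, the median turning to 0.01 without homozygous replicate 3. With the Y-linked covariate 1 fell and none rose. Cycs encodes cytochrome c, which triggers the apoptosome once released. It averaged 1138 ± 51.4 in homozygous and 1440.1 ± 28.5 in heterozygous spleens (SD, n = 3 each; log2 fold change −0.34, adjusted p = 0.01), with an adjusted p = 0.0643 under the Y-linked covariate. Its 2 other probe sets were at −0.35 and −0.21, and processed copies of this gene make it uncertain. Casp1 (−0.54), an inflammatory caspase at 34.4 ± 5.46 in homozygous and 50.4 ± 5.53 in heterozygous spleens (SD, n = 3 each), lost its call without homozygous replicate 1 (−0.45) or 3 (−0.52) and without heterozygous replicate 2 (−0.46). Casp8 (−0.29), the initiator at death receptors, lost it in every refit but that without homozygous replicate 2 (−0.31 to −0.21 where lost). Birc5 (−0.25), the mitotic protein survivin, lost it in every refit but that without homozygous replicate 3 (−0.27 to −0.23 where lost). The 1 rise was that of the dim Casp14 (0.23), outside the naming rule.

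Death receptors and their adaptors had 2 falls among 18 genes and no rise in limma (4 and 2 at an unadjusted p below 0.05), with a median of −0.04. Of all genes 6.56% were called lower and 17.0% in either direction. Ngfr, the neurotrophin receptor p75, was at −0.37 (adjusted p = 0.0232) and Tradd, the adaptor of the TNF receptor, at −0.31 (adjusted p = 0.0192). Both calls were lost without homozygous replicate 1 (−0.29 and −0.32), without heterozygous replicate 1 (−0.33 and −0.27) or 2 (−0.38 and −0.30), and with the Y-linked covariate, and that of Ngfr also without homozygous replicate 3 (−0.39). The death receptor genes Fas and Tnfrsf10b, both also counted among the p53 targets above, were at −0.01 and −0.02. Both were chosen after their values were seen.

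**Figure D4:**
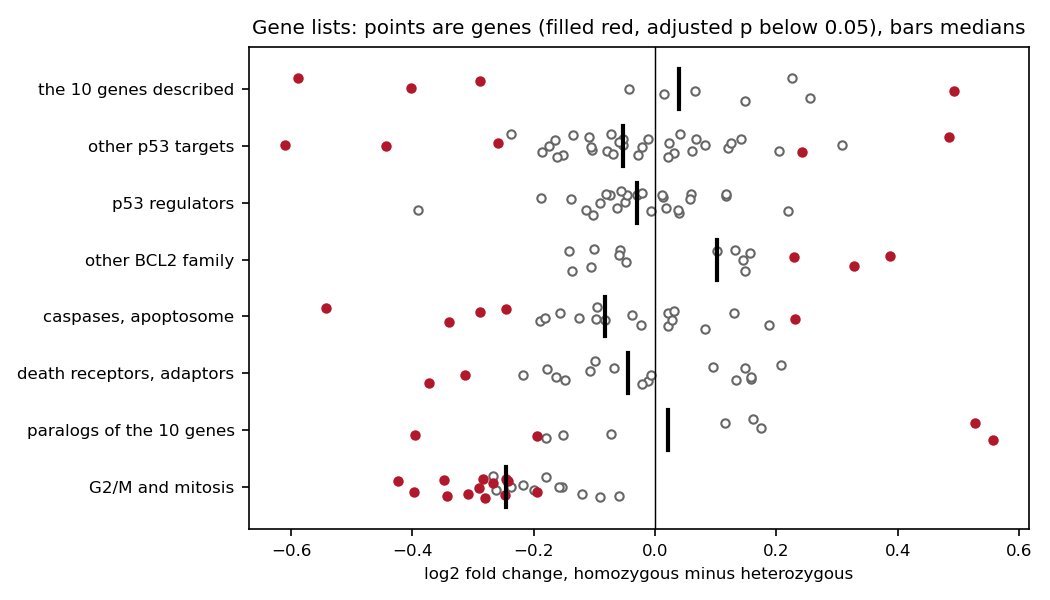
Log2 fold change (homozygous minus heterozygous, horizontal axis) of the genes of 8 lists, 1 point per gene, filled red at an adjusted p below 0.05, with a black bar at each list's median. The 10 genes, the other p53 targets and the p53 regulators scatter on both sides of 0 (medians 0.04, −0.05 and −0.03), while all 25 mitosis genes lie left of 0 (median −0.25).

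Of 10 paralogs of these genes 2 rose, 2 fell and 6 were not called, beside 17.0% of all genes called. Sesn3, a second sestrin, rose to 1543 ± 102 in homozygous spleens, against 1047 ± 60.9 in heterozygous spleens (SD, n = 3 each; log2 fold change 0.56, adjusted p = 0.00286), while Sesn2 fell and Sesn1 (−0.07, adjusted p = 0.46) did not pass. Phlda2, an imprinted relative of Phlda3, rose to 109.7 ± 5.65 in homozygous spleens, against 76.1 ± 7.96 in heterozygous spleens (SD, n = 3 each; 0.53, adjusted p = 0.00613). Plk4, the master kinase of centriole duplication, fell to 474 ± 17.1 in homozygous spleens, against 625 ± 36.1 in heterozygous spleens (SD, n = 3 each; −0.40, adjusted p = 0.00772). Sesn3, Phlda2 and Plk4 were called in all 6 refits that left out an array. Plk1 (−0.20, adjusted p = 0.0481), the mitotic polo-like kinase, lost its call in all 6 (−0.21 to −0.18). Ccng2 (−0.18), the other cyclin G, did not pass (adjusted p = 0.0831). Neither did Phlda1 (0.16), Plk3 (−0.15), Plk5 (0.17) and Trp53inp2 (0.12). Taken within arrays, Sesn3 relative to Sesn2 shifted by 0.85 on the log2 scale, a pair chosen after its values were seen. An exact permutation test of that shift gave p = 0.1. This is the smallest p that 3 against 3 arrays allow, so the test cannot decide. No other difference in response between a gene and its paralog was tested.

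Pearson correlations of log2 values over the 6 arrays were ranked after leaving out genes with predicted or clone names. The genes most like Plk2 were Rassf10 (0.998), the endothelin receptor gene Ednrb (0.998) and the microRNA gene Mir431 (0.997). Those most like Bcl2 were Pdzd2, Rala and Myo10 (0.995, 0.995 and 0.994). With 6 arrays such values are dominated by the difference between the groups and are given as a description. Ednrb, which marks enteric neural crest cells among others, rose by 0.51.

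Markers of other cell types moved in the same samples. Their counts stand beside 10.4% of all genes called higher and 6.56% called lower. Of 13 markers of enteric neurons and glia 7 rose and none fell, with a summed intensity of 4990 to 5332 in homozygous and 3221 to 3305 in heterozygous spleens. Of 15 epithelial markers 5 rose and none fell (summed 3963 to 4321 in homozygous and 3063 to 3827 in heterozygous spleens), and of 17 pancreas markers 4 rose and 1 fell (3881 to 7385 in homozygous and 2126 to 2778 in heterozygous spleens). Of 25 endothelial markers 16 fell and 1 rose (summed 10434 to 11461 in homozygous and 14079 to 14371 in heterozygous spleens), and of 17 erythroid markers 7 fell and none rose (11136 to 11969 in homozygous and 14203 to 15449 in heterozygous spleens). Among 25 cell division genes of the G2 and M phases there were 13 falls and no rise (25320 to 26891 in homozygous and 29879 to 30881 in heterozygous spleens). Birc5 and Plk1, whose falls were also counted on other lists above, are among the 13. The refits without 1 array gave 2 to 11 falls, the 2 being without homozygous replicate 1 and 3 without heterozygous replicate 2. There were 6 falls after cyclic loess, 7 after quantile normalization, 19 with a variance trend and 0 with the Y-linked covariate. The median log2 fold change was −0.25 with that covariate and −0.25 without it. The mitotic kinase gene Nek2 (−0.40, adjusted p = 0.0086) was called in all 6 such refits. Ttk, a spindle checkpoint kinase (−0.35), lost its call without homozygous replicate 1 (−0.29). The checkpoint kinase Bub1 (−0.34) lost it without homozygous replicate 1 (−0.32) or 3 (−0.30) and heterozygous replicate 2 (−0.35) or 3 (−0.31). The spindle motor gene Kif11 (−0.42) lost it in all but the refit without homozygous replicate 2. Nek2, Ttk, Bub1 and Kif11 all lost their calls with the Y-linked covariate, with estimates of −0.37, −0.35, −0.32 and −0.33 (adjusted p from 0.0551 to 0.17 in limma). No marker on these lists is at 0, since the smallest deposited value is 2.75. Single genes carry much of some sums. Gcg (2413 ± 1520 in homozygous and 596 ± 470.1 in heterozygous spleens, overlapping, limma adjusted p = 0.0986) and Cpa1 (1664 ± 103 in homozygous and 534 ± 289.7 in heterozygous spleens) lead the pancreas sum (SD, n = 3 each). Gap43 leads the enteric sum with a mean of 2876 in homozygous and 1707 in heterozygous spleens, and Hbb-y the erythroid sum with 8413 in homozygous and 10103 in heterozygous spleens. Over the refits without 1 array the rises numbered 5 to 9 for enteric, 0 to 5 for epithelial and 2 to 9 for pancreas markers, and the falls 9 to 17 for endothelial and 3 to 7 for erythroid markers. No epithelial marker was called without homozygous replicate 1 or without heterozygous replicate 2. The lowest pancreas (2), endothelial (9) and erythroid (3) counts also came without homozygous replicate 1, and the pancreas count was 2 without heterozygous replicate 2 and 9 without homozygous replicate 2. The unadjusted counts at p below 0.05 behind the empty directions were 0 lower for enteric and for epithelial markers and 0 higher for erythroid markers and mitosis genes. The part of these cell types in the changes of Plk2, Phlda3, Sesn2 and Bcl2 was not tested, and in whole spleens fewer cells of a type and less RNA per cell cannot be told apart.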

How the data were processed

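Total RNA of E13.5 spleens was hybridised to 6 Affymetrix arrays. The authors deposited 1 linear intensity per probe set and array. Per the submitters' processing notes the tool was GCRMA, a method that adjusts background by probe sequence, normalizes and summarises; no version or genome build was given in the sources used here. Of 35512 probe sets, 21789 had 1 gene symbol in the platform annotation, 1621 had several and were left out with 12102 unnamed ones; 21698 Entrez identifiers were found in RefSeq (GRCm38.p6) and no symbol changed.

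Values entered as log2(intensity + 1). Probe sets at 4 or more (intensity 15) on at least 3 of 6 arrays were kept, 20424 in all, and the brightest per gene gave 18710 genes. The model (lmFit and eBayes of limma 3.58.1, R 4.3.3) took all 6 arrays and no covariate, with two-sided tests and Benjamini-Hochberg adjustment. The pseudocount pulls fold changes of dim genes toward 0. The fit was tested on simulated data for 18710 genes. The number of arrays limits the precision.

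The 10 genes and the gene lists were chosen with earlier results of these data known. The lists overlap, since Apaf1, Birc5, Fas, Plk1, Plk3, Sesn1 and Tnfrsf10b each stand on more than 1 of them. Named genes are the 10, Mdm4, Bcl2l1 and Mcl1, up to 4 called genes with the largest change from each pathway list (or the 2 with the smallest p), and the 3 genes most correlated with the one of the 10 that had the smallest adjusted p in each direction (Plk2 and Bcl2). Genes with predicted or clone names were skipped in ranking these correlations. Alternatives were 2 other filters, a pseudocount of 16, averaged probe sets, quantile normalization, median centring, cyclic loess, 2 variance models, weights per array, a block for the replicate number, a covariate from the Y-linked Eif2s3y, Kdm5d and Uty, and refits without each array. Same-numbered arrays did not deviate together (correlations of residuals −0.01, 0.04 and −0.11 for replicates 1 to 3). Lymphoid (2 higher, 1 lower of 10), macrophage (0 of 20, 3 at an unadjusted p below 0.05 in limma) and liver markers (0 of 11, 1 at that p) were also counted. Of 13 spleen mesenchyme markers 1 was higher and 6 lower, where 10.4% of all genes were called higher and 6.56% lower.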

Additional observations from a re-analysis of the deposited data

How the results depend on the processing

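The 10 genes were refitted under 18 settings. Of these 180 values, 161 kept direction and side of the threshold, 8 lost a call, 4 gained one and 7 turned sign. Plk2 and Phlda3 kept their calls under all 18. The number of the 10 called lower stayed at 2 or 3. The number called higher was 2 with the filter at log2 6 and with array weights (Pmaip1 added in both), and 2 after quantile normalization (Bcl2l11 added); it was 1 to 2 in refits without 1 array, the 2 being without homozygous replicate 2 (Bbc3 added). Sign turns all concerned estimates near 0. Mdm2 was at 0.0186 after quantile normalization and 0.0189 after cyclic loess, and ranged from −0.0798 to 0.0061 in refits without 1 array. Ccng1 was at −0.0042 after median centring and −0.0412 with the Y-linked covariate, and ranged from −0.0032 to 0.0481 without 1 array. Mdm4 was at 0.0041 after quantile normalization and 0.0092 after cyclic loess, with −0.155 to 0.0407 without 1 array, and Mcl1 at 0.0055 with the Y-linked covariate, with −0.0855 to 0.0095 without 1 array. The cause of these turns was not tested.

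Over all genes 1951 were higher and 1227 lower. After cyclic loess 1092 were higher and 1168 lower, so the higher share of calls fell to 48.3% there, against 61.4%. With the Y-linked covariate 1140 were higher and 507 lower. In refits without 1 array, which hold fewer samples, 699 to 2319 were higher and 499 to 1244 lower. Leaving out homozygous replicate 1 gave 699 and 499 of these, homozygous replicate 3 gave 987 and 835, heterozygous replicate 1 gave 1046 and 643, and heterozygous replicate 2 gave 820 and 556. With the replicate block, 2091 genes were higher and 1072 lower, 1 of the 10 genes was higher and 2 were lower, since Sesn2 lost its call (adjusted p = 0.0696 in limma); the shared numbers do not pair the samples.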
